A study of Mus musculus with 8 samples.

Results

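The genes described here are 10 genes of cartilage and bone formation, *Sox5*, *Sox6*, *Sox9*, *Acan*, *Col2a1*, *Runx2*, *Sp7*, *Alpl*, *Spp1* and *Ibsp*, taken by their symbols from a table of 55276 gene symbols. All 10 were present in the table. They were measured in 8 libraries of GFP+ FAPs (fibro-adipogenic progenitors, connective tissue cells that reside in skeletal muscle) sorted from mouse tibialis anterior after a freeze-pierce injury. The control mice were Osr1 flox/+ CAGG Cre+ and the Osr1cKO mice were Osr1 flox/flox CAGG Cre+, and 2 libraries were made from each genotype at 3 and at 7 days post injury (dpi). All mice carried CAGG-Cre, a tamoxifen-inducible Cre that is active in most tissues, and received tamoxifen. The controls were heterozygous and carried a recombined *Osr1* allele as well, because the GFP used for sorting is expressed from that allele. Libraries of 3 dpi came from single mice and those of 7 dpi from pools of 4 mice, so that the day and the pooling of mice cannot be told apart. The labels name 1 sequencer and read length for all 8 libraries, while the study's methods name a second of each and do not say which libraries they were used for. Whether the sequencing also differed between the days is therefore unknown, and its part in the day comparisons was not tested.

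Cartilage formation is started by the transcription factor Sox9, which acts together with its relatives Sox5 and Sox6 on genes of the cartilage matrix. Among these are *Col2a1*, which codes for the chain of type II collagen, and *Acan*, which codes for the proteoglycan aggrecan. Bone formation depends on the transcription factor Runx2 and, after it, on Sp7 (osterix). Alpl is the tissue-nonspecific alkaline phosphatase that allows mineral to form, and the secreted glycoproteins osteopontin (*Spp1*) and bone sialoprotein (*Ibsp*) bind mineral and cells. *Spp1* is not restricted to bone and is also produced by macrophages and by mesenchymal cells in wounds. FAPs of injured muscle can contribute to ectopic bone and cartilage.

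*Spp1* and *Ibsp* lie near each other on chromosome 5, both on the plus strand. In GENCODE (GRCm38, the assembly of mm10) *Ibsp* is at chr5:104299171-104311469 and *Spp1* at chr5:104435118-104441050, starting 123649 bp after the end of *Ibsp*. Their upstream sequences are shown with that of *Acan* (chr7:79053483-79115099, plus strand), since *Spp1* had the largest fitted difference between genotypes and *Acan* the largest fitted rise between days among these genes. The 250 bases before the start of each gene in RefSeq (GRCm38.p6) are given 5′ to 3′. They are chr5:104434861-104435110 for *Spp1*, chr5:104299037-104299286 for *Ibsp* and chr7:79052976-79053225 for *Acan*. The RefSeq start used for *Ibsp* lies inside the GENCODE gene, and so does the end of its window with the CCAAT box. Capitals mark the core letters bound by Runx factors (TGTGGT, or ACCACA on the other strand) and the CCAAT box (CCAAT, or ATTGG on the other strand). The motifs do not overlap each other in these windows.
Spp1: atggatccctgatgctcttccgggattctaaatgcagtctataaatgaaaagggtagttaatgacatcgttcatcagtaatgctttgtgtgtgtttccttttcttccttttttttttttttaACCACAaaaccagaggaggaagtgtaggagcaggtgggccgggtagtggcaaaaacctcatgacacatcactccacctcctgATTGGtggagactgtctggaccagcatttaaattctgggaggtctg
Ibsp: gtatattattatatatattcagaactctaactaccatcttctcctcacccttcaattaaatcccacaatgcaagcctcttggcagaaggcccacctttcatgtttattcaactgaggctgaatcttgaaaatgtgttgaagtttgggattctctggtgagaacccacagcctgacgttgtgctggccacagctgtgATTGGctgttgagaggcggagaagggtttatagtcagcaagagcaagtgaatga
Acan: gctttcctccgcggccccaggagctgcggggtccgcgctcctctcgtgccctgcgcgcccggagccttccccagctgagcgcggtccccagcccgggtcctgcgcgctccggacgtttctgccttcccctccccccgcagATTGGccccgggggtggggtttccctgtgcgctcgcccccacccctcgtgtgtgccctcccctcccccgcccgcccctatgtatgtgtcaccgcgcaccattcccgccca
The *Spp1* window held 1 Runx core, on the minus strand and starting at -128, and 1 CCAAT box starting at -46. A further window of *Spp1* (chr5:104435942-104436191), which lies inside the gene, held neither. *Ibsp* held no Runx core but a CCAAT box at -54, and *Acan* held a CCAAT box at -110. Of all 32851 windows of this length, 14.0% held a Runx core and 33.8% a CCAAT box on either strand. The *Acan* window had a GC content of 74.4%, against 43.6% in both other windows and a median of 52.4% over all windows. The *Runx2* window (chr17:44814628-44814877, minus strand) also held 1 Runx core, at -80, which lies inside the GENCODE gene. The window of *Sox5* and both of *Alpl* held neither motif. Of the 6 windows of *Sox6*, 2 held a Runx core and 2 a CCAAT box. A Sox core (AACAAT, or ATTGTT on the other strand) was also searched for, which 9.42% of all windows held, and of the windows of these genes only 1 of *Sox6* held it. No window was found for *Sox9*, *Col2a1* and *Sp7*. These matches are letters in a window and no measure of binding.

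Values are TPM (a share of all transcripts corrected for gene length) as deposited, and the fragments behind them were recovered from the TPM and the exon lengths. The libraries held between 36516528 and 51096358 fragments. The FAP markers *Pdgfra*, *Dcn* and *Ly6a* were present in every library, with *Pdgfra* between 197 and 365 TPM, and *Ptprc*, the gene of the sorted-out CD45, was at most 0.216 TPM. *Osr1* itself was 105 and 91.0 TPM in the control libraries at 3 dpi against 70.7 and 71.9 TPM in Osr1cKO, and 67.6 and 71.6 TPM against 64.4 and 60.8 TPM at 7 dpi. The gene total includes the exons that are left after recombination, so this is only a partial check of the deletion. The 7 dpi libraries also differed in sex-linked transcripts. *Ddx3y*, a Y-linked gene, was listed at 0 in all 4 libraries at 3 dpi, at 47.5 and 48.6 TPM in the control libraries at 7 dpi and at 10.5 and 2.22 TPM in Osr1cKO. *Xist*, which is transcribed from the inactive X chromosome, was 33.9 to 52.9 TPM at 3 dpi, 12.4 and 0.0252 TPM in control at 7 dpi and 110 and 103 TPM in Osr1cKO. At 7 dpi the genotype and the sex of the pooled mice therefore cannot be told apart, and neither can the day and the sex of the control mice.

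The 10 genes spanned a wide range of levels. *Spp1* was the most abundant in every group and made up 87.3% of the summed TPM of the 10 genes in control at 3 dpi, 89.7% in Osr1cKO at 3 dpi, 56.7% in control at 7 dpi and 80.9% in Osr1cKO at 7 dpi. *Sox9* followed with group means between 86.5 and 109 TPM, and *Runx2* with means between 26.6 and 53.3 TPM. The libraries of these 3 genes did not overlap each other within any group. *Alpl* came next at 3 dpi in both genotypes. At 7 dpi *Acan* came next and then *Alpl*, and in control their libraries overlapped. *Sox5* had means between 2.36 and 4.69 TPM. In the control libraries at 3 dpi, *Sox5*, *Ibsp*, *Sp7*, *Col2a1* and *Acan* each overlapped their neighbour in the order. *Sp7*, *Col2a1*, *Ibsp* and *Sox6* lay under 3 TPM in every library. The regulators of each lineage thus stood far apart, with *Sox9* and *Runx2* at 26.4 TPM or more in every library and *Sox6* and *Sp7* at 1.21 TPM or less.

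**Figure D1:**
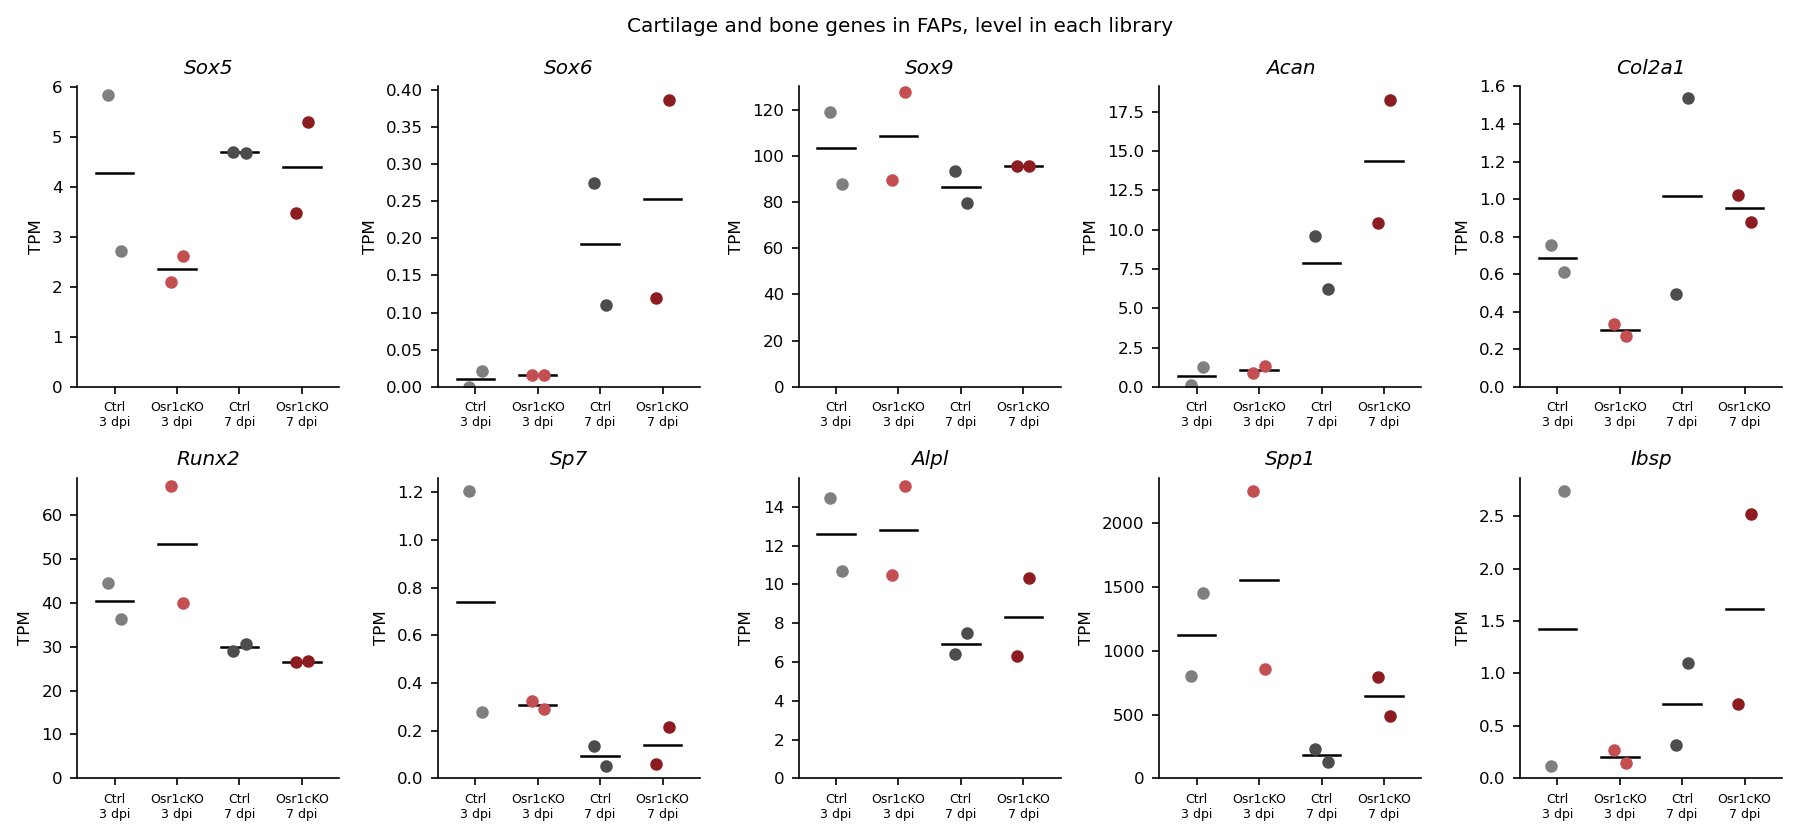
TPM of each of the 10 genes (y axis, TPM from 0, a scale for each gene) in the 4 groups (x axis). Points are single libraries, 2 in each group, and lines are group means. *Acan* is higher and *Alpl* lower in group mean at 7 dpi in both genotypes, and the Osr1cKO libraries of *Spp1* at 7 dpi (793 and 492 TPM) lie above those of control (231 and 131 TPM).

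The comparison of genotypes asks whether loss of *Osr1* changed these genes in FAPs, first at 3 dpi. *Col2a1* was the only one of the 8 members tested at 3 dpi that passed the threshold (a fold change over 1.2 and, before adjustment, a p under 0.05), and it was lower in Osr1cKO. Of all 15699 genes tested, 2.40% were called higher and 3.87% lower, so a single called gene is no result about the members as a group. None of all genes tested had an adjusted p under 0.1, and 985 had an unadjusted p under 0.05 in limma. *Col2a1* was 0.756 and 0.612 TPM in the control libraries (87 and 72 fragments) and 0.333 and 0.273 TPM in Osr1cKO (39 and 33 fragments). Both Osr1cKO libraries were below both controls, with a ratio of group means of 0.443. The log2 fold change on scaled TPM + 1 was -0.37 (SE 0.14, limma, unadjusted p = 0.0429, Benjamini-Hochberg adjusted p = 0.784). The call was lost without control library 1 (log2 fold change -0.31), without Osr1cKO library 1 (-0.41) and without Osr1cKO library 2 (-0.33).

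The other cartilage genes were spread widely between libraries of 1 genotype at 3 dpi. *Sox9* was 119 and 87.7 TPM in control libraries, with 89.6 and 128 TPM in those of Osr1cKO, so that the genotypes overlapped. Its log2 fold change was 0.07 with a 95% interval of -0.51 to 0.64. *Sox5* was 5.83 and 2.72 TPM in control libraries, with 2.10 and 2.62 TPM in those of Osr1cKO. Both Osr1cKO libraries of *Sox5* were below both controls, as were those of 18.0% of all genes tested, but control library 2 was close to them and the difference did not pass (log2 fold change -0.59, limma, adjusted p = 0.831). *Acan* had 10 fragments in control library 1 and between 84 and 128 in the other libraries. Its levels were 0.108 and 1.25 TPM in control libraries, with 0.889 and 1.31 TPM in those of Osr1cKO, and these overlapped. *Sox6* had 0 and 4 fragments in control and 3 in each Osr1cKO library, and was not tested at 3 dpi. A count of 0 in control library 1 allows up to 3 fragments, or 0.0162 TPM, so a difference between levels of *Sox6* this low was not detectable at this depth.

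Among the bone genes, no member passed the threshold at 3 dpi. *Runx2* was 44.5 and 36.3 TPM in control libraries, with 66.6 and 40.1 TPM in those of Osr1cKO. Osr1cKO library 1 was the highest of the 4 and the other one lay between the controls, and the log2 fold change was 0.36 with a 95% interval of -0.37 to 1.08. Without Osr1cKO library 2 it was called higher (log2 fold change 0.74, limma, unadjusted p = 0.0286), and without library 1 it was -0.03. *Spp1* was 799 and 1451 TPM in control libraries, with 2252 and 860 TPM in those of Osr1cKO. These overlapped too, and the interval of the log2 difference reached from -1.07 to 1.81. *Alpl* was 14.5 and 10.7 TPM in control libraries, with 10.5 and 15.1 TPM in those of Osr1cKO. *Sp7* had 51 fragments (1.21 TPM) in control library 1 and between 12 and 14 in the other libraries. *Ibsp* stood out in the other control library, with 72 fragments (2.74 TPM) against 3 in control library 1 and 7 and 4 in Osr1cKO, and was not tested. Without control library 2, where the lone control library is assumed to vary like the Osr1cKO ones, *Sox5* (log2 fold change -1.03, limma, unadjusted p = 0.00799) and *Sp7* (log2 fold change -0.75, limma, unadjusted p = 0.00642) were called lower and *Acan* higher (log2 fold change 0.91, limma, unadjusted p = 0.00726).

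At 7 dpi *Spp1* was the member that differed most. It was 231 and 131 TPM in control libraries, with 793 and 492 TPM in those of Osr1cKO, and both Osr1cKO libraries were above both controls. The group means were 181 ± 70.8 TPM (SD, n = 2) and 643 ± 213 TPM (SD, n = 2), a ratio of 3.56. The log2 fold change was 1.71 (SE 0.34, 95% interval 0.85 to 2.57) with an unadjusted p of 0.00321, which did not pass after adjustment over all genes (limma, Benjamini-Hochberg adjusted p = 0.245). It passed with limma-voom on the recovered fragments (adjusted p = 0.0386) and with a replicate block (limma, adjusted p = 0.0237). The block lends little weight, since the replicate numbers were not shown to pair the libraries (correlation of deviations 0.0611 at 7 dpi). Without 1 library the log2 fold change lay between 1.3 and 2.1. It was then called only where a control library was left out, so that the lone control was assumed to vary like the Osr1cKO libraries. Over the 10 alternatives that kept all libraries, its limma adjusted p lay between 0.0237 and 0.635. The exons of *Spp1* share 309 bp with the predicted gene *Gm42793* on the same strand, which was at most 2.58 TPM.

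*Runx2* was lower in Osr1cKO at 7 dpi by a small amount that did not pass after adjustment. It was 29.1 and 30.5 TPM in control libraries, with 26.4 and 26.8 TPM in those of Osr1cKO, and both Osr1cKO libraries were below both controls. The log2 fold change was -0.28 (SE 0.08, limma, unadjusted p = 0.0150, adjusted p = 0.312), and -0.16 on the TPM without further scaling. An antisense gene, *Runx2os1*, shares 519 bp of exon with *Runx2* and reached 11.4 TPM, and it is not stated whether fragments were counted by strand. In all, 0 of the 9 members tested at 7 dpi were called at an adjusted p under 0.1, against 0.0181% of the 16578 genes tested called higher and 0.0483% called lower. At an unadjusted p under 0.05, *Spp1* and *Runx2* passed, 1 in each direction, against 5.30% and 5.83% of all genes.

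The matrix genes of cartilage and the remaining bone genes at 7 dpi did not pass with either threshold. *Acan* was 9.60 and 6.22 TPM in control libraries, with 10.5 and 18.2 TPM in those of Osr1cKO, and the latter were both higher. Its log2 fold change was 0.64 with a 95% interval of -0.09 to 1.38 (limma, unadjusted p = 0.0742, adjusted p = 0.438). *Col2a1* was 0.492 and 1.54 TPM in control, with both Osr1cKO libraries (1.02 and 0.878 TPM) between them. *Sox9* was 93.5 and 79.5 TPM in control libraries, with 95.5 and 95.7 TPM in those of Osr1cKO. Both Osr1cKO libraries of *Sox9* were thus higher as deposited, but not on scaled TPM, and the log2 fold change was 0.02 with an interval of -0.23 to 0.27. *Sox5* and *Alpl* overlapped between genotypes, at 3.48 to 5.30 TPM and 6.32 to 10.3 TPM. *Ibsp* was 0.314 and 1.10 TPM in control (7 and 25 fragments) and 0.704 and 2.52 TPM in Osr1cKO (14 and 50 fragments), with a log2 fold change of 0.50 and an interval of -0.47 to 1.46. *Sox6* had 17 to 55 fragments and overlapped, and *Sp7*, with 2 to 7 fragments, was not tested. Scaling mattered for such readings, since without it the median log2 fold change of all genes at 7 dpi was 0.11 and 42.8% of genes had both Osr1cKO libraries above both controls, against 10.7% below. On scaled TPM these shares were 23.3% and 22.5%, and 2 members (*Acan* and *Spp1*) were above and *Runx2* below.

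**Figure D2:**
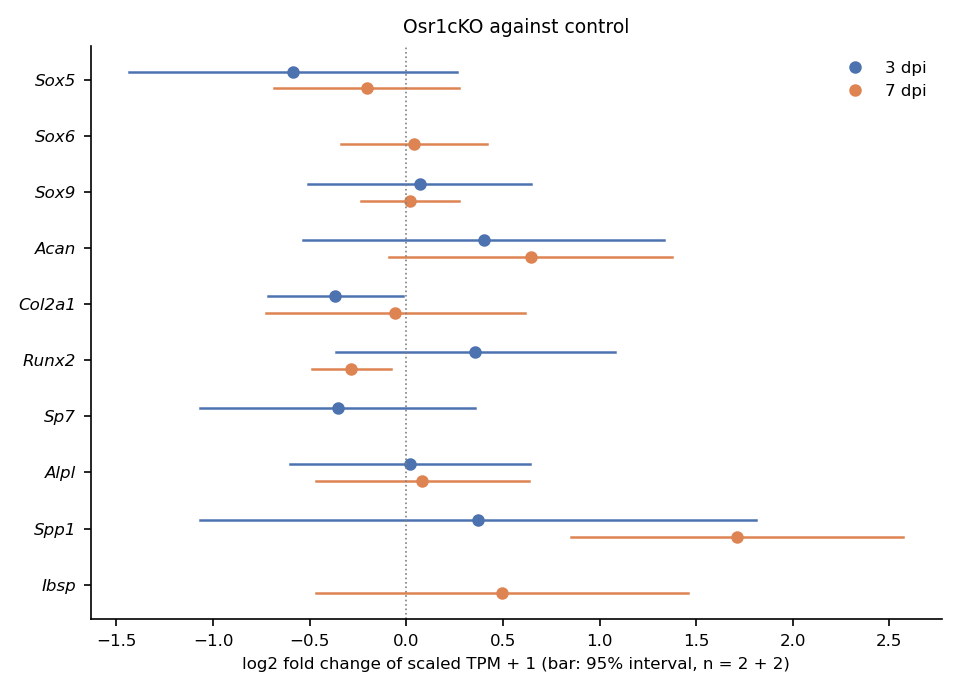
Log2 fold change of Osr1cKO against control (x axis, scaled TPM + 1) for each gene (y axis) at 3 and 7 dpi. Points are limma estimates and bars 95% intervals from 2 libraries per genotype, and genes that were not tested on a day have no point. The interval of *Spp1* at 7 dpi (0.85 to 2.57) lies furthest above 0.

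Since macrophages and other cells can produce *Spp1*, lists of marker genes were summed in each library. The sum of 12 macrophage markers was 51.6 and 59.0 TPM in control libraries, with 57.5 and 80.1 TPM in those of Osr1cKO at 7 dpi, where *Spp1* differed. It was 12.7 to 25.4 TPM at 3 dpi, where *Spp1* was 799 to 2252 TPM, against 131 to 793 TPM at 7 dpi. Of the 11 macrophage markers tested, 0 were called at 3 dpi. At 7 dpi 1 was higher at an unadjusted p under 0.05 in limma. On that day 10 of the 11 had a log2 fold change above 0 (median 0.11), against 8486 of all 16578 genes. Both Osr1cKO libraries were above both controls for 3 of them and below for 0, against 42.8% and 10.7% of all genes. At 7 dpi *Lyz2* was 23.9 and 21.1 TPM in control libraries, with 19.5 and 36.1 TPM in those of Osr1cKO. *Cd68* was 12.5 and 13.7 TPM against 15.6 and 17.4 TPM, while *Adgre1* was at most 1.80 TPM in any library. At most 1 of the 12 was listed at 0 in a library. Of 8 tendon cell markers, 2 were called higher at 3 dpi, against 2.40% of all genes, and 0 at 7 dpi, where 4 were higher at an unadjusted p under 0.05 in limma, against 5.30%. Their median log2 fold changes were 0.69 and 0.61. Their sums overlapped at 3 dpi, at 3602 and 5651 TPM in control libraries, with 9724 and 5539 TPM in those of Osr1cKO. At 7 dpi the sum was 5962 and 5812 TPM in control libraries, with 7077 and 7367 TPM in those of Osr1cKO. Myofiber markers summed to 85.3 and 74.5 TPM in control libraries, with 49.8 and 49.5 TPM in those of Osr1cKO at 7 dpi, where 5 of 9 tested were lower at an unadjusted p under 0.05 in limma, against 5.83% of all genes. The sum of 10 proliferation genes was 188 and 157 TPM in control libraries, with 224 and 240 TPM in those of Osr1cKO at 7 dpi, and 740 to 999 TPM at 3 dpi, and 5 of the 10 were higher in Osr1cKO at 7 dpi at an unadjusted p under 0.05 in limma. At this threshold, 2 of 8 endothelial markers were also higher at 7 dpi, 2 of the 3 osteoclast markers tested were lower, and of the 6 Schwann cell markers tested 1 was higher and 1 lower. The sums of these lists overlapped between genotypes at 7 dpi. For the endothelial markers they were 50.7 and 64.4 TPM in control libraries, with 52.1 and 77.1 TPM in those of Osr1cKO. Most of this sum was *Tek*, at 38.9 and 53.0 TPM against 36.3 and 58.4 TPM. Of the 8 endothelial markers, 7 had a log2 fold change above 0 (median 0.24). Both Osr1cKO libraries were above both controls for 6 of them and below for 0, against 42.8% and 10.7% of all genes. The osteoclast sums were 984 and 1145 TPM against 867 and 1008 TPM. Nearly all of this was *Ctsk*, at 947 and 1101 TPM against 834 and 974 TPM. Of the 3 osteoclast markers tested, 1 had both Osr1cKO libraries above both controls and 1 below. Of the neutrophil, muscle stem cell, mural cell and FAP markers, 0 passed an unadjusted p under 0.05 at 7 dpi in limma. The log2 fold change was above 0 for 0 of 9 FAP markers (median -0.16) and 0 of 8 muscle stem cell markers (median -0.22). It was above 0 for 3 of 4 neutrophil markers and 3 of 7 mural cell markers tested. On deposited TPM the genotypes overlapped for every FAP and muscle stem cell marker, while 42.8% of all genes were above and 10.7% below. Scaling can change this reading, and overlap on scaled TPM was not counted for the marker lists. At 3 dpi 1 of 9 FAP markers was called lower, and 0 were called in the marker lists other than those of FAPs and tendon cells. The part of these markers in the differences of *Spp1*, *Acan* and *Runx2* was not tested. In bulk RNA of sorted cells, fewer cells of a type and less RNA per cell cannot be told apart.

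**Figure D3:**
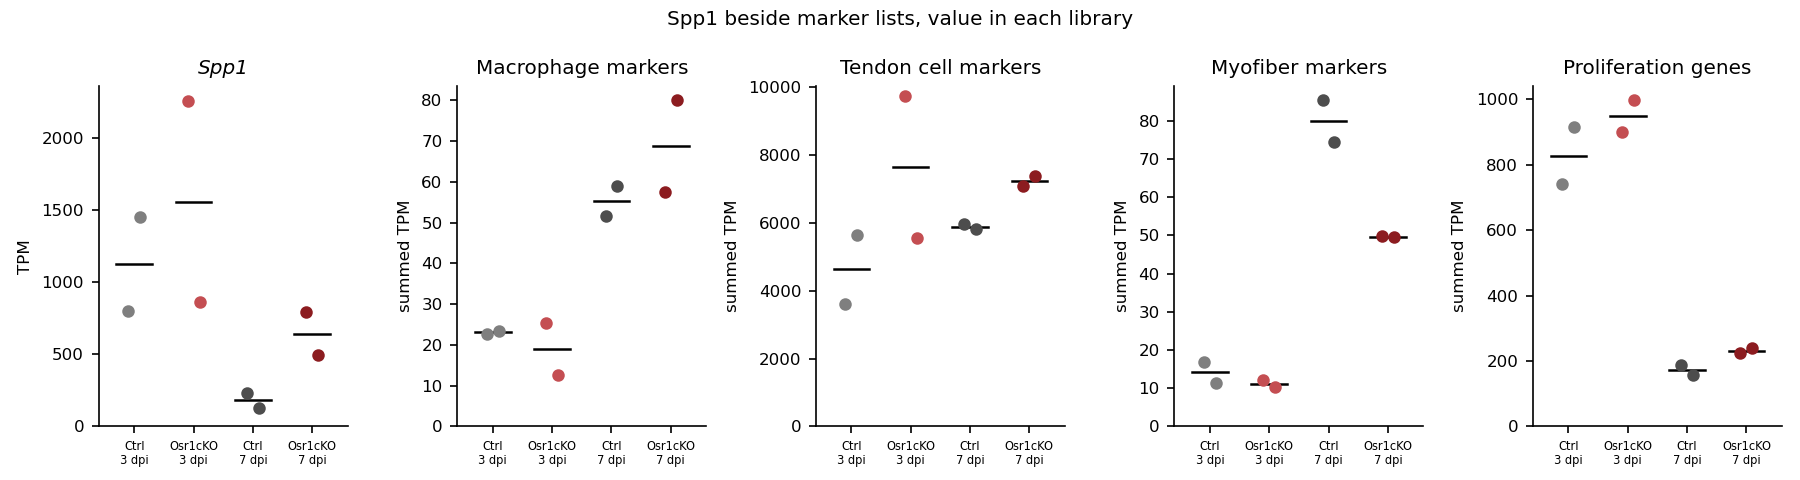
*Spp1* (y axis, TPM) and the summed TPM of 4 marker lists (y axes, summed TPM, each from 0) in the 4 groups (x axis). Points are libraries and lines group means. The macrophage sum is at most 80.1 TPM, and the tendon cell and proliferation sums are higher and the myofiber sum lower in both Osr1cKO libraries at 7 dpi.

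The comparison of days asks how these genes moved as FAPs passed from the early to the later phase of regeneration. *Acan* rose and *Alpl* fell in both genotypes. *Acan* rose from 0.108 and 1.25 TPM at 3 dpi to 9.60 and 6.22 TPM at 7 dpi in control, and from 0.889 and 1.31 TPM to 10.5 and 18.2 TPM in Osr1cKO. The log2 changes were 2.52 in control (SE 0.40, limma, adjusted p = 0.00256) and 2.74 in Osr1cKO (SE 0.40, limma, adjusted p = 0.00231), the only rises called among the members in both genotypes. The group mean was 11.6 times higher in control and 13.1 times higher in Osr1cKO. In all, 1 of 10 members was called higher and 3 lower in control, against 26.4% and 28.0% of the 17371 genes tested, and 1 higher and 2 lower in Osr1cKO, against 22.4% and 27.7%. The days also differed in pooling and in sex-linked transcripts, as given above, and may have differed in the sequencing.

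*Col2a1* and the Sox genes did not follow *Acan* at this threshold. *Col2a1* was 0.612 to 0.756 TPM at 3 dpi and 0.492 and 1.54 TPM at 7 dpi in control, which overlapped. In Osr1cKO both 7 dpi libraries were above both of 3 dpi, and the log2 change of 0.54 just missed the threshold (limma, adjusted p = 0.107). It passed on the unscaled TPM (limma, adjusted p = 0.0877), with median-of-ratios scaling (limma, adjusted p = 0.0967), with a pseudocount of 0.1 (limma, adjusted p = 0.0697) and with limma-voom (adjusted p = 0.0504). *Sox6* went from at most 4 fragments in each library at 3 dpi to between 17 and 55 at 7 dpi, and both 7 dpi libraries were above both of 3 dpi in each genotype, as in 34.3% of genes in control and 41.3% in Osr1cKO. On the scale of TPM + 1 such a low gene moves little, and the log2 change was 0.25 in control (limma, adjusted p = 0.149) and 0.28 in Osr1cKO (limma, adjusted p = 0.117). With limma-voom on fragments, *Sox6* was called higher in control (adjusted p = 0.0204) and in Osr1cKO (limma-voom, adjusted p = 0.0296). *Sox9* changed by -0.17 and -0.27 on the log2 scale and overlapped between the days in both genotypes. *Sox5* changed by 0.24 and 0.58 and was not called.

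Several bone genes moved the other way. *Spp1* fell from 799 and 1451 TPM to 231 and 131 TPM in control, a log2 change of -2.55 (SE 0.55, limma, adjusted p = 0.00871). In Osr1cKO it was 2252 and 860 TPM at 3 dpi and 793 and 492 TPM at 7 dpi, again without overlap (as in 34.8% of genes in Osr1cKO and 40.0% in control for this direction), and the log2 change of -1.26 did not pass (limma, adjusted p = 0.106). It passed with limma-voom (adjusted p = 0.0860) and with robust eBayes (limma, adjusted p = 0.0998). Without 1 library the value ranged from -1.97 to -0.55. It passed without Osr1cKO library 2 of 3 dpi (-1.97, limma, adjusted p = 0.0382) and without control library 1 (limma, adjusted p = 0.0893) or control library 2 (limma, adjusted p = 0.0894) of 3 dpi, and was -0.55 without Osr1cKO library 1 of 3 dpi (limma, adjusted p = 0.471). *Runx2* fell in Osr1cKO, from 66.6 and 40.1 TPM to 26.4 and 26.8 TPM (log2 change -1.03, limma, adjusted p = 0.0101). In control it went from 44.5 and 36.3 TPM to 29.1 and 30.5 TPM, a log2 change of -0.35 that did not pass (limma, adjusted p = 0.239). Both control libraries of 7 dpi were nevertheless below both of 3 dpi, as in 40.0% of genes. Whether *Runx2* passed in control depended on the Osr1cKO libraries of 3 dpi, which enter the shared estimate of the spread. Without 1 library its log2 change in control lay between -0.45 and -0.25. *Alpl* fell by 0.70 on the log2 scale in control (limma, adjusted p = 0.0564) and by 0.67 in Osr1cKO (limma, adjusted p = 0.0672). With all libraries kept, its call in Osr1cKO was lost without further scaling (log2 change -0.58, limma, adjusted p = 0.129). It was also lost with no filter on low values (-0.72, limma, adjusted p = 0.119). *Sp7* fell by 0.60 in control (limma, adjusted p = 0.0649), a call that rested on the 51 fragments of control library 1 at 3 dpi and was lost without it (log2 change -0.22, limma, adjusted p = 0.211). It was lost without control library 1 of 7 dpi (limma, adjusted p = 0.135) and library 2 of 7 dpi (limma, adjusted p = 0.216) as well. The call of *Alpl* in control was lost without control library 1 of 3 dpi (limma, adjusted p = 0.182), control library 1 of 7 dpi (limma, adjusted p = 0.206) or control library 2 of 7 dpi (limma, adjusted p = 0.129). In Osr1cKO, *Alpl* was not called without Osr1cKO library 2 of 3 dpi (limma, adjusted p = 0.284), Osr1cKO library 1 of 7 dpi (limma, adjusted p = 0.332) or control library 2 of 7 dpi (limma, adjusted p = 0.102). *Ibsp* was not called in either genotype. In Osr1cKO it did not fall, but went from 0.268 and 0.148 TPM to 0.704 and 2.52 TPM without overlap. The same order was seen in 41.3% of genes, and *Ibsp* had few fragments (7 and 4, then 14 and 50). Without 1 library its log2 change in Osr1cKO lay between 0.48 and 1.47. In control its libraries overlapped between the days, and the range was -1.17 to 0.60.

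**Figure D4:**
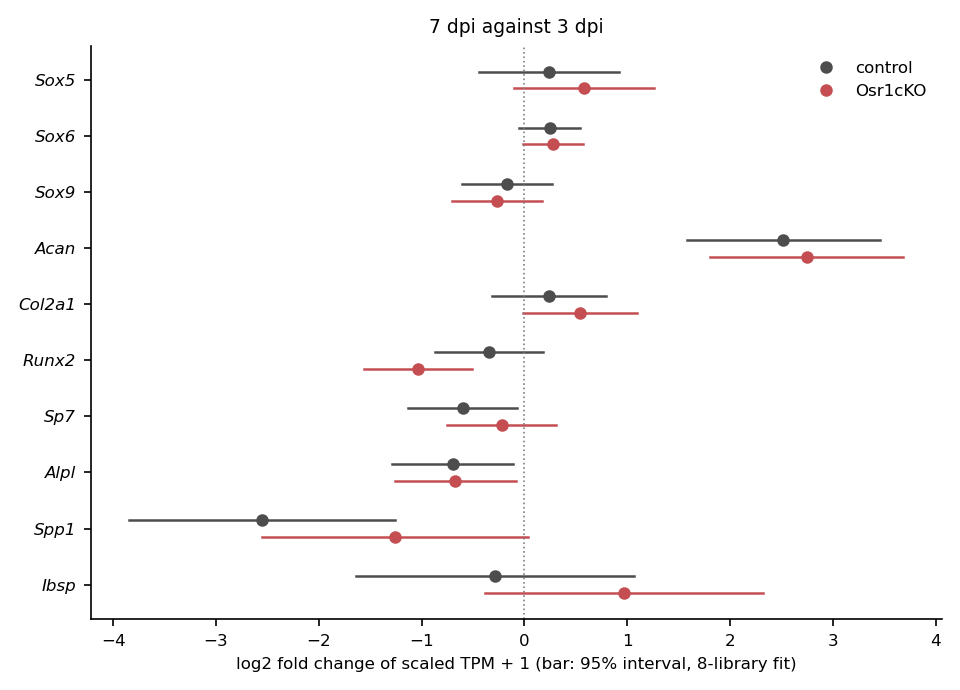
Log2 change from 3 to 7 dpi (x axis, scaled TPM + 1) for each gene (y axis) in control and in Osr1cKO. Points are limma estimates from the fit of all 8 libraries and bars 95% intervals. *Acan* lies above 2 in both genotypes, and *Spp1*, *Runx2* and *Alpl* lie below 0.

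The change between days was also compared between the genotypes. None of the 10 members passed the interaction test, and none of the 17371 genes did at an adjusted p under 0.1 in limma, while 1208 had an unadjusted p under 0.05. *Runx2* had the smallest p of the members, with a log2 difference of -0.69 (95% interval -1.43 to 0.06, limma, unadjusted p = 0.0654, adjusted p = 0.744). For *Spp1* it was 1.29 with an interval of -0.54 to 3.12, and for *Ibsp* 1.25 with an interval of -0.66 to 3.17. A difference between the days in the effect of the genotype was thus not shown for any of these genes, and the intervals allow large ones.

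A wider list of cartilage genes was examined beside the members. It held 44 genes present in the files, of which 32 were tested at 3 dpi. Of these, 4 were called higher and 4 lower in Osr1cKO, against 2.40% and 3.87% of all genes tested. The median of their log2 fold changes was 0.22, against 0.01 over all genes tested. The higher ones were *Chst11*, an enzyme that sulfates chondroitin, *Pth1r*, the receptor for parathyroid hormone and its related protein, and the fibrillar collagen genes *Col11a1* and *Col27a1*. *Chst11* was 31.3 and 34.9 TPM in control and 50.2 TPM in both Osr1cKO libraries (log2 fold change 0.59). *Col27a1* was 10.7 and 23.2 TPM in control libraries, with 35.3 and 34.9 TPM in those of Osr1cKO. The lower ones were *Comp*, a cartilage and tendon matrix protein, at 66.2 and 53.1 TPM in control libraries, with 38.9 and 42.0 TPM in those of Osr1cKO, the intermediate layer protein gene *Cilp2*, the type IX collagen gene *Col9a3* and *Zfp219*, a partner of Sox9. None of these 8 passed an adjusted p under 0.1 in limma (0.774 to 0.784). The study itself displayed cartilage-related genes from these libraries, so the direction of such a list is not independent evidence.

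At 7 dpi 35 genes of the cartilage list were tested and 0 were called in limma, while 8 were higher and 2 lower at an unadjusted p under 0.05, against 5.30% and 5.83% of all genes. The median log2 fold change was 0.00, as over all genes (0.01). *Col11a1*, the type XI collagen chain found with type II collagen, was 48.7 and 49.8 TPM in control libraries, with 82.8 and 78.2 TPM in those of Osr1cKO (log2 fold change 0.57, limma, adjusted p = 0.197). *Fmod* (fibromodulin), a small proteoglycan that binds collagen fibrils, was 156 and 178 TPM in control libraries, with 263 and 289 TPM in those of Osr1cKO (log2 fold change 0.59, limma, adjusted p = 0.213). *Epyc* (epiphycan) was 0.869 and 1.24 TPM in control libraries, with 3.57 and 5.49 TPM in those of Osr1cKO (limma, adjusted p = 0.222), and *Cilp2* was 1.12 and 0.882 TPM against 2.15 and 2.92 TPM (limma, adjusted p = 0.270). On the other side, *Cilp* was 2163 and 2346 TPM in control libraries, with 1692 and 1602 TPM in those of Osr1cKO (limma, adjusted p = 0.262), and the transcription factor gene *Foxc1* was 19.4 and 19.7 TPM against 16.0 and 18.9 TPM (limma, adjusted p = 0.375). Levels ranged widely within the list. *Matn1* and *Snorc*, picked after their values were seen, were listed at 0 in all 8 libraries and 7 of the 44 genes lay under 1 TPM in every library, while *Prg4* (lubricin), a lubricant of joint surfaces, was 309 to 3113 TPM, *Cilp* 649 to 2346 TPM and *Comp* 38.9 to 155 TPM.

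The wider bone list held 45 genes, 34 of them tested at 3 dpi and 36 at 7 dpi. At 3 dpi 2 were called higher in Osr1cKO and 0 lower, against 2.40% and 3.87% of all genes, and the median of the log2 fold changes was -0.02. *Tnfsf11* (RANKL), the signal that makes osteoclasts form, was 6.18 and 4.39 TPM in control libraries, with 10.2 and 18.0 TPM in those of Osr1cKO (log2 fold change 1.23, limma, unadjusted p = 0.0103, adjusted p = 0.774). *Cbfb*, the partner subunit of Runx factors, was 83.3 and 88.8 TPM in control libraries, with 107 and 117 TPM in those of Osr1cKO (log2 fold change 0.38, limma, adjusted p = 0.774). At 7 dpi 0 were called in limma, and 6 were higher and 6 lower at an unadjusted p under 0.05, against 5.30% and 5.83% of all genes. Of the former, *Vdr*, the vitamin D receptor, was 5.39 and 3.48 TPM in control libraries, with 19.0 and 9.30 TPM in those of Osr1cKO (limma, adjusted p = 0.305), and *Twist2*, a repressor of osteoblast maturation, was 9.79 and 10.6 TPM against 16.1 and 15.3 TPM (limma, adjusted p = 0.287). *Runx3* and the collagen gene *Col24a1* were the others named there, with log2 fold changes of 0.41 and 0.53. Of the latter, *Mgp* (matrix Gla protein), an inhibitor of calcification, was 1157 and 1717 TPM in control libraries, with 904 and 926 TPM in those of Osr1cKO (limma, adjusted p = 0.296). The Wnt coreceptor genes *Lrp5* and *Lrp6* had log2 fold changes of -0.36 and -0.30, and the homeobox gene *Msx1* of -0.42. Of the 45 genes, 9 lay under 1 TPM in every library. Among genes of mature osteoblasts and osteocytes, picked here after their values were seen, *Mepe* was listed at 0 in all 8 libraries and *Bglap*, which has near-identical copies, was at most 1.30 TPM. *Dmp1* was at most 1.66 TPM, while *Ifitm5* was 1.14 to 7.64 TPM, *Smpd3* 1.74 to 12.6 TPM and *Omd* 3.41 to 11.9 TPM.

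**Figure D5:**
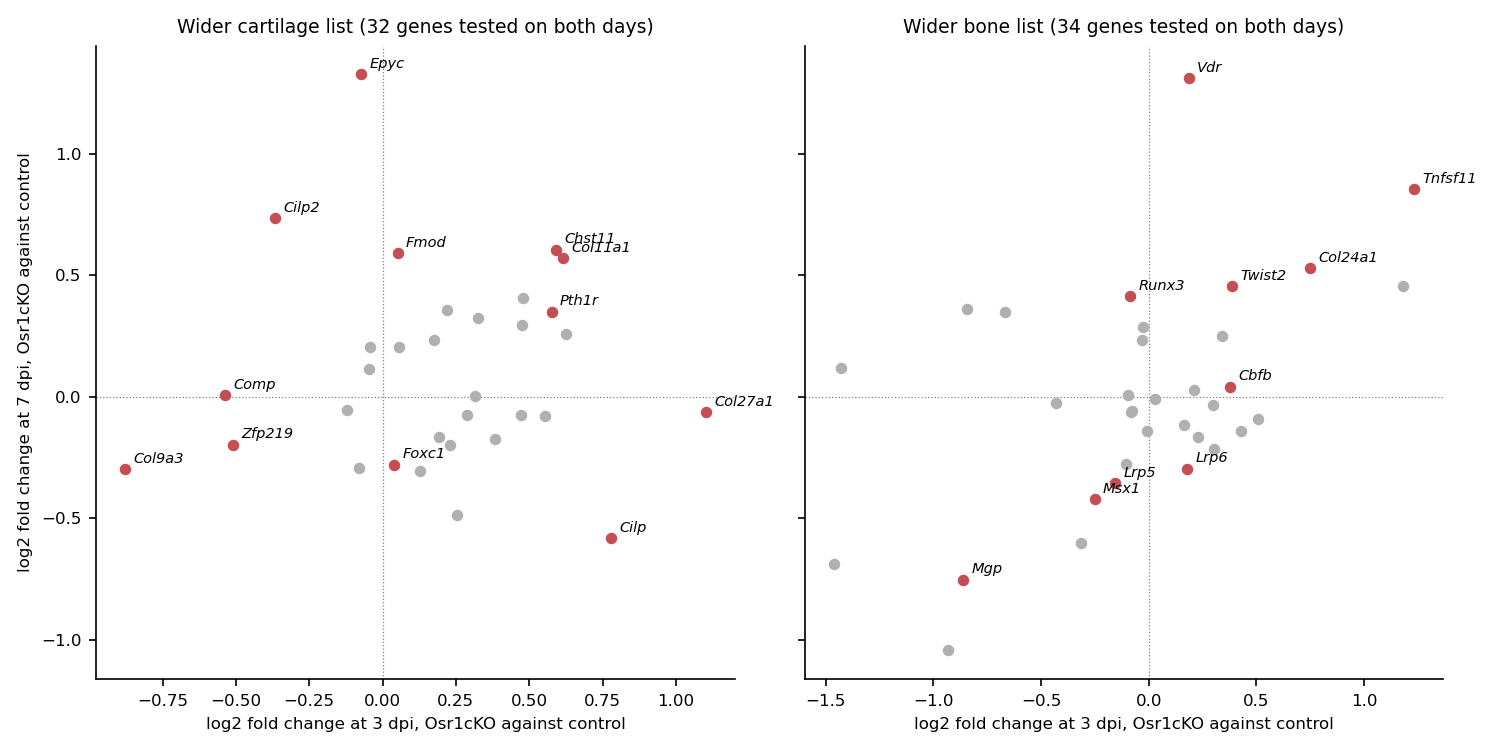
Log2 fold change of Osr1cKO against control at 3 dpi (x axis) and 7 dpi (y axis) for the genes of the wider cartilage list (32 genes) and the wider bone list (34 genes) tested on both days. Each point is a gene, and those named by rule at either day are red. *Tnfsf11* and *Col11a1* lie above 0 on both days, *Mgp* lies below 0 on both, and *Cilp* and *Cilp2* lie on opposite sides.

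Between the days, 17 of the 35 cartilage genes tested were called higher in control and 2 lower, against 26.4% and 28.0% of all genes, with a median log2 change of 0.53 against 0.02 over all genes. In Osr1cKO 14 were called higher and 5 lower, against 22.4% and 27.7%. *Col11a1* had the largest rise, from 1.51 and 1.77 TPM to 48.7 and 49.8 TPM in control (log2 change 4.32, limma, adjusted p = 6.84e-05). *Col9a2* rose from 0.182 and 0.152 TPM to 6.56 and 5.94 TPM (limma, adjusted p = 0.000153), *Matn4* by 2.04 on the log2 scale (limma, adjusted p = 0.000524) and *Fmod* by 1.88 (limma, adjusted p = 0.00203). *Prg4* fell by 1.81 in control (limma, adjusted p = 0.0429), and *Csgalnact1*, an enzyme of chondroitin synthesis, fell by 0.50 (limma, adjusted p = 0.0201). Of the 36 bone genes tested, 8 were higher and 6 lower in control, and 8 and 7 in Osr1cKO, which is close to or below those shares. *Col24a1* (log2 change 2.26), *Mgp* (1.87), *Tnfsf11* (1.64) and *Omd*, osteomodulin (1.05), had the largest rises in control. *Vdr* fell by 2.13, the phosphate transporter gene *Slc20a2* by 1.79, the transcription factor gene *Creb3l1* by 1.01 and the collagen chaperone gene *Fkbp10* by 0.62 on the log2 scale. Exons of *Zfp219*, *Col9a3*, *Pth1r*, *Prg4*, *Slc20a2* and *Fkbp10* overlap genes on the other strand, so that their values are uncertain if fragments were counted without strand. The same holds for *Smpd3*, which shares 247 bp with *Prmt7*, a gene that reached 24.4 TPM. *Twist2*, *Epyc* and *Matn4* also overlap genes on the other strand, but these were at most 0.424 TPM.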

How the data were processed

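RNA of GFP+ FAPs was sequenced in 8 libraries, 2 per genotype and day. The authors aligned reads from a stranded polyA library to mm10 with STAR, normalized with DESeq2 and deposited TPM per gene symbol; the counter and annotation are not given in the sources used here. Of 55385 entries, the 109 further entries of 106 repeated symbols were left out.

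Exon lengths from GENCODE mouse release 21 gave whole fragments (of values below 50 fragments, 98.7% to 98.9% were whole to within 0.02). Sums ranged from 36516528 to 51096358 fragments, and low genes carry the most counting error. For each day, libraries were brought to a common scale (mean of log ratios, 30% trimmed), a gene needed 10 fragments or more in 2 libraries and 15 in all (or a mean TPM of at least 1 where it had no length), and log2(TPM + 1) was fitted with limma 3.58.1 in R 4.3.3 (lmFit, eBayes with a trend). Fold changes on this scale understate those of low genes. P-values were adjusted over all genes tested by Benjamini-Hochberg. A call at 3 dpi needed an unadjusted p under 0.05, and at 7 dpi or between days an adjusted p under 0.1, each beside a fold change over 1.2. Days were compared in a fit of all 8 libraries. The interaction was called at an adjusted p under 0.1. Whether libraries overlapped was read from deposited TPM unless stated. The procedure was run on simulated libraries with a dispersion of 0.02 in every group. The real replicate libraries exceeded counting noise more at 3 dpi than at 7 dpi. Their chi-square per degree of freedom was 204 (control) and 109 (Osr1cKO) at 3 dpi, against 21.5 and 26.5. The simulation therefore does not measure the error rates in these data. P-values set each difference against the spread between libraries, which is estimated in part over all genes. This spread is between single mice at 3 dpi and between pools of 4 mice at 7 dpi, where it is not the spread between mice.

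Members and lists were chosen with earlier results of these data known. Named were all members and *Osr1*; of each wider list and day, up to 4 genes per direction of smallest p among those with an unadjusted p under 0.05, a fold change over 1.2 and no overlap between genotypes; and up to 4 per direction with the largest change between days among those called in control. Alternatives were other scalings, filters, a pseudocount of 0.1, robust eBayes, limma-voom on fragments, all 8 libraries in 1 fit, the other threshold, a replicate block and leaving out each library. Proteins and reads were not analysed here. Python 3.11.15 and pandas 2.3.3 were used.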

Additional observations from a re-analysis of the deposited data

Results flagged for a closer look

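*Cilp2*, *Cilp* and *Col9a2*, of the wider cartilage list, were looked at again because every Osr1cKO library lay on one side of the controls at 3 dpi and on the other side at 7 dpi. *Cilp2* was below both controls at 3 dpi (0.220 and 0.301 TPM against 0.614 and 0.638 TPM) and above them at 7 dpi (2.15 and 2.92 TPM against 1.12 and 0.882 TPM), and the interaction on the log2 scale was 1.09 (limma, unadjusted p = 0.00115, adjusted p = 0.424). *Cilp* was above at 3 dpi (1775 and 1071 TPM against 996 and 649 TPM) and below at 7 dpi, with an interaction of -1.41 (limma, unadjusted p = 0.0101, adjusted p = 0.620). *Col9a2* had log2 fold changes of 0.13 at 3 dpi and -0.31 at 7 dpi, with an interaction of -0.45 (limma, unadjusted p = 0.0801, adjusted p = 0.772). The difference between the days passed the adjusted threshold for none of these 3 genes.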

How the results depend on the processing

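The low counts of *Sox6*, *Sp7*, *Ibsp* and *Col2a1* and the 2 libraries per group limit the precision. For the members and *Osr1*, 410 of 446 values under settings that kept all libraries kept their direction and their side of the threshold; the cause of the other changes was not tested.

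At 3 dpi, 377 genes were called higher and 608 lower. The number higher was 593 with no filter on low values, 241 with limma-voom and 928 in the fit of all 8 libraries, and both numbers were 0 at an adjusted p under 0.1 in limma. *Col2a1*, the 1 member called lower, was not called (0 members) with a mean TPM of at least 1, where it was not tested, in the fit of all 8 libraries, at an adjusted p under 0.1 or with a replicate block. *Alpl* turned to -0.029 with limma-voom. Without 1 library, the numbers were 152 to 1121 higher and 211 to 1683 lower for all genes and 0 to 1 higher and 0 to 3 lower for members. The log2 fold changes that turned ranged from -0.12 to 0.91 (*Acan*), -0.20 to 0.23 (*Alpl*), -0.03 to 0.74 (*Runx2*), -0.16 to 0.30 (*Sox9*), -0.75 to 0.032 (*Sp7*) and -0.35 to 1.09 (*Spp1*).

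At 7 dpi, 3 genes were called higher and 8 lower. Both numbers were 0 without further scaling, with no filter, with a mean TPM of at least 1 and in the fit of all 8 libraries, while limma-voom called 97 higher and 293 lower, with 1 member (*Spp1*) higher. At an unadjusted p under 0.05 in limma, 878 were higher and 966 lower, with 1 member in each direction. *Col2a1* turned to 0.002 without scaling and *Sox9* to -0.030 with limma-voom. Without 1 library, 1 to 241 genes were higher and 6 to 227 lower, with 0 to 1 member higher. Ranges were -0.21 to 0.36 (*Alpl*), -0.45 to 0.33 (*Col2a1*), -0.003 to 0.98 (*Ibsp*), -0.43 to 0.008 (*Sox5*), -0.10 to 0.18 (*Sox6*) and -0.11 to 0.14 (*Sox9*).

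Between days in control, 2 members were called higher with a pseudocount of 0.1 and with limma-voom (*Acan* and *Sox6*), and *Ibsp* turned to 0.13 with limma-voom. *Sp7* was no longer called lower with no filter on low values (limma, adjusted p = 0.149). Without 1 library, 1 to 2 members were higher and 1 to 4 lower, with ranges of -0.14 to 0.64 (*Col2a1*), -1.17 to 0.60 (*Ibsp*), -0.17 to 0.64 (*Sox5*) and -0.35 to 0.005 (*Sox9*). In Osr1cKO, members higher numbered 2 without scaling, 2 with median-of-ratios scaling, 3 with a pseudocount of 0.1 and 4 with limma-voom, and members lower 1 without scaling and 1 with no filter. *Alpl* was the member that lost its call without scaling and with no filter. Without 1 library, 2574 to 4423 genes and 1 to 3 members were higher, and 1 to 3 members lower.

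For the interaction, 1 gene was higher and 2 lower with a pseudocount of 0.1, 15 and 25 with no filter, and 1 lower with a mean TPM of at least 1; without 1 library, 0 to 72 were higher and 0 to 83 lower. *Sox9* turned to 0.081 without scaling, *Acan* to -0.49 with a pseudocount of 0.1 and to -0.86 with limma-voom, and *Sox6* to -1.04 with limma-voom. Ranges without 1 library were -0.30 to 0.75 (*Acan*), -0.26 to 0.31 (*Alpl*), -0.093 to 0.69 (*Col2a1*), -0.056 to 0.75 (*Sox5*), -0.11 to 0.17 (*Sox6*) and -0.34 to 0.14 (*Sox9*).

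The replicate numbers were not shown to pair the libraries, since the deviations of same-numbered libraries correlated at -0.128 at 3 dpi and 0.0611 at 7 dpi. A replicate block gave 331 genes higher and 650 lower at 3 dpi, with 0 members, and 13 and 14 at 7 dpi, with 1 member higher (*Spp1*, limma, adjusted p = 0.0237); it changed no other call of a member. With the pairs crossed at 3 dpi, an alternative chosen after seeing the data, 483 were higher and 685 lower, with 0 members.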
